A study of Mus musculus with 6 samples.

Results

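The transcripts of 6 genes that code for subunits of the transcription factor AP-1 were followed in the anterior cingulate cortex (ACC) of adolescent mice. They are the Fos family genes Fos, Fosb and Fosl2 and the Jun family genes Jun, Junb and Jund. They were chosen by symbol, with earlier results of these data known, and all 6 were found among the 14250 genes of the table. The mice were C57BL/6 and had been injected intraperitoneally on postnatal day 14 with pyrogen-free saline or with LPS (lipopolysaccharide, a bacterial endotoxin) at 50 µg per kg. No other treatment or allele is named in the labels. ACC tissue was dissected by hand on postnatal day 45 after isoflurane and pentobarbital anaesthesia and cold perfusion, and polyadenylated RNA was sequenced. Each group held 3 libraries, each from 1 mouse, and the study concerns early inflammation, microglia, dendritic spines and depression-like behaviour.

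AP-1 is a dimer. Jun proteins pair with each other or with Fos proteins through a leucine zipper, while Fos proteins do not form stable pairs with themselves, and the dimer binds a short palindromic DNA site. Fos, Fosb, Jun and Junb are classical immediate early genes, whose transcripts rise within minutes of neuronal firing, growth factors or stress and decay quickly. Jund is made at a steadier level and turns over slowly, and Fosl2 is induced more slowly than Fos. In cortex, Fos is widely used as a mark of recently active neurons. In GENCODE M21 (build GRCm38) all 6 are protein-coding genes. Fos lies at chr12:85473890-85477273 and Fosl2 at chr5:32135801-32157842 on the plus strand, and Fosb at chr7:19302696-19310051 on the minus strand. Jun lies at chr4:95049034-95052222 and Junb at chr8:84974484-84978718 on the minus strand, and Jund at chr8:70698949-70700616 on the plus strand.

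The total was 36168687 counts in the smallest library and 41270737 in the largest. Levels are given as CPM (counts scaled to the size of the library, here with TMM factors) to compare a gene between libraries, and as the authors' FPKM (scaled for length as well as depth) to compare genes with each other. Log2 changes are LPS relative to saline from edgeR's quasi-likelihood test over all genes, each with a standard error (SE), and the Benjamini-Hochberg adjusted p was held against 0.05. All 13 markers of cortical excitatory neurons were present, and they summed to between 7511 and 8596 CPM per saline library and between 7771 and 8263 CPM per LPS library. Tissue of this kind mixes cell types, so fewer cells of a type and less RNA per cell cannot be told apart.

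LPS mice had lower levels of 5 of the 6 subunit transcripts, with each LPS library below each saline library, and a level of Jund close to that of saline mice. Across all genes, 6.84% had LPS libraries wholly below saline libraries. The median log2 change was -0.68 over the 6 subunits and 0.00 over all genes. In edgeR, 0 of the 6 subunits passed in either direction over all genes, where 0.189% of genes were called lower. At an unadjusted p under 0.05 edgeR counted 5 subunits lower, where 3.54% of all genes were lower by that rule. The subunits were chosen with earlier results of these data known, so that count is a description and no separate support. DESeq2 called the same 5 subunits lower (0.562% of all genes were), and limma-voom called Fos and Junb lower (0.161% of all genes were). The tools thus gave similar sizes for these differences and disagreed on which of them passed.

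**Figure D1:**
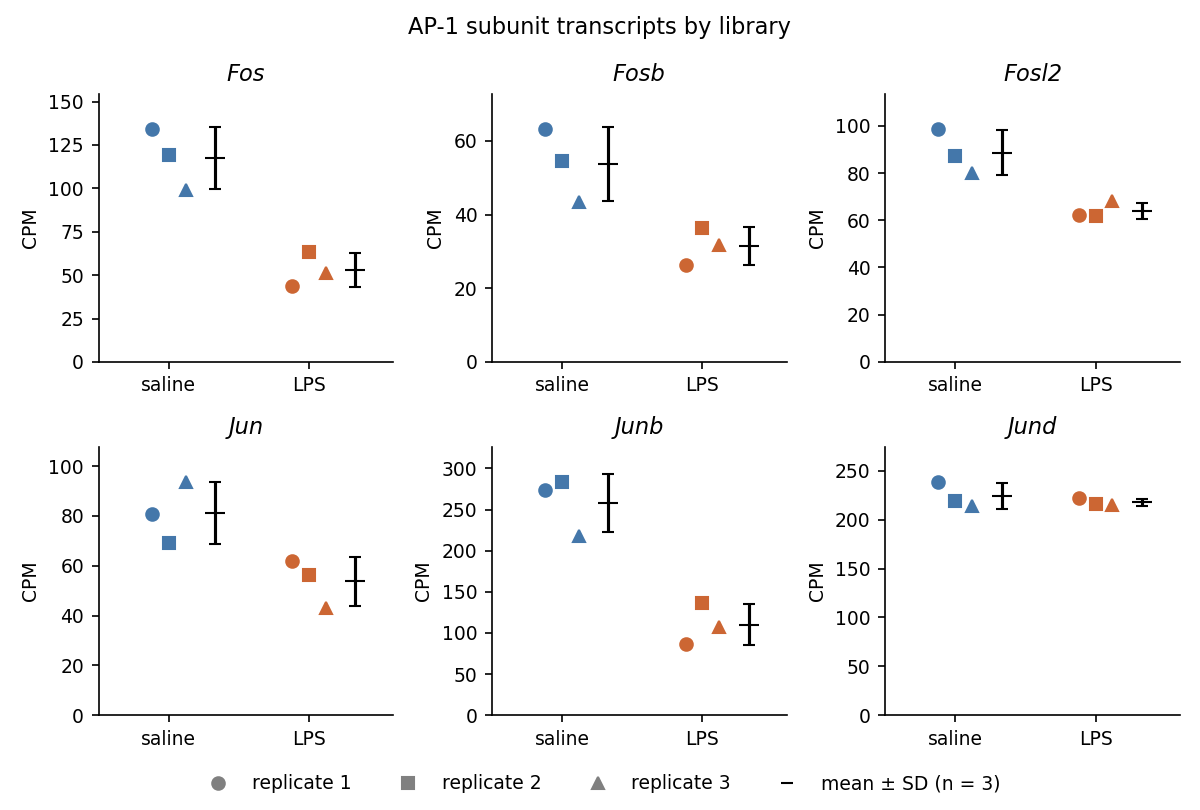
Level of each AP-1 subunit transcript in CPM (vertical axes, starting at 0, with a separate scale for each gene) in the 3 saline and 3 LPS libraries, with the group mean ± SD in black. The LPS libraries lie wholly below the saline libraries for Fos, Fosb, Fosl2, Jun and Junb, and the groups overlap for Jund.

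Fos codes for the founding member of its family and needs a Jun partner to bind DNA. Its level was 134, 119 and 98.9 CPM in saline 1, 2 and 3 and 43.6, 63.2 and 51.5 CPM in LPS 1, 2 and 3. The lowest saline library thus lay 35.7 CPM above the highest LPS library. The fitted LPS level was 44.9% of saline (95% interval 33.2% to 60.6%), or -1.16 in log2 (SE 0.175, edgeR adjusted p = 0.132). The adjusted p ran from 1.71e-13 with DESeq2 to 0.447 over 18 alternative analyses. Among them, edgeR without its robust option called Fos (edgeR adjusted p = 0.0446), as did limma-voom (adjusted p = 0.0438).

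Junb codes for a Jun protein that activates transcription more weakly than Jun on many promoters and can oppose it. Its level was 273, 284 and 218 CPM in saline 1, 2 and 3 and 86.3, 137 and 107 CPM in LPS 1, 2 and 3. This was the widest separation of the 6 subunits, with a gap of 80.9 CPM between the nearest libraries of the groups. The fitted LPS level was 42.7% of saline (95% interval 29.7% to 61.2%), or -1.23 in log2 (SE 0.204, edgeR adjusted p = 0.217). The adjusted p was 7.11e-14 with DESeq2 and 0.0488 with limma-voom, and ran up to 0.609 when single libraries were left out. Ranked from the lowest fitted log2 change among all 14250 genes, Junb was at place 39 and Fos at place 42. Part of the annotated exons of Junb overlaps Prdx2, a peroxiredoxin gene on the opposite strand, and the library kit is not stated to keep the strand. The level of Prdx2 itself was 95.9 ± 2.25 CPM without and 91.1 ± 6.95 CPM with LPS (SD, n = 3 each), and these groups overlapped.

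Fosb codes for FosB and, by alternative splicing, for the long-lived variant ΔFosB, and gene-level counts do not separate the forms. Its level was 63.4, 54.6 and 43.5 CPM in saline 1, 2 and 3 and 26.3, 36.5 and 31.7 CPM in LPS 1, 2 and 3. The groups lay close, with saline 3 only 6.97 CPM above LPS 2. The fitted LPS level was 58.5% of saline (95% interval 43.7% to 78.4%), or -0.77 in log2 (SE 0.174, edgeR adjusted p = 0.345). Over the alternatives the adjusted p ran from 7.10e-05 with DESeq2 to 0.660.

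Jun codes for c-Jun, the target of the JNK kinases. Its level was 80.9, 69.1 and 93.7 CPM in saline 1, 2 and 3 and 62.0, 56.3 and 43.0 CPM in LPS 1, 2 and 3. Saline 2 and LPS 1 were separated by 7.09 CPM. The fitted LPS level was 66.2% of saline (95% interval 49.3% to 89.0%), or -0.59 in log2 (SE 0.172, edgeR adjusted p = 0.526). DESeq2 was the one alternative of 18 that called Jun (adjusted p = 0.00500), and the highest value over the alternatives was 0.813.

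Fosl2 codes for Fra-2, a Fos protein that lacks the strong activation domain of Fos. Its level was 98.9, 87.1 and 80.1 CPM in saline 1, 2 and 3 and 62.1, 61.9 and 68.0 CPM in LPS 1, 2 and 3. Its LPS libraries were tight, with an SD of 3.46 CPM around a mean of 64.0 CPM, while that of Fos was 9.83 around 52.7 CPM. The fitted LPS level was 72.1% of saline (95% interval 63.4% to 82.0%), or -0.47 in log2 (SE 0.0824). Its edgeR adjusted p of 0.0708 was the smallest of the 6 subunits although its log2 change was the smallest of the 5 lower ones. Without saline 3 the edgeR adjusted p was 0.0327, and over all alternatives it ran from 3.38e-04 to 0.286.

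Jund codes for JunD, the Jun protein present in most resting cells. Its level was 239, 219 and 214 CPM in saline 1, 2 and 3 and 222.3, 216.2 and 215.5 CPM in LPS 1, 2 and 3. The groups overlapped. The fitted LPS level was 97.2% of saline, with a 95% interval of 88.7% to 106.5% (log2 -0.04, SE 0.0587, edgeR adjusted p = 0.918). Differences inside that interval are compatible with these data. The interval is not a limit of detection, since edgeR also did not call the larger differences of the other subunits. Its fitted log2 change was between -0.07 and 0.01 when single libraries were left out, the positive value being without saline 1. Jund passed in none of the 18 alternatives.

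**Figure D2:**
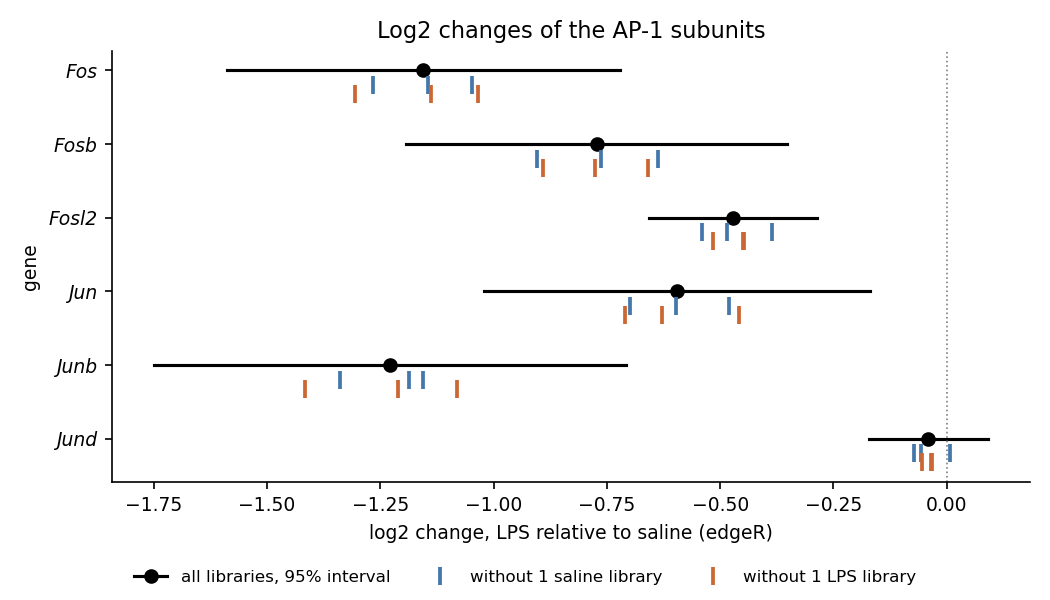
Log2 change (horizontal axis, LPS relative to saline, edgeR) of each AP-1 subunit over all libraries (black point with its 95% interval) and with 1 saline (blue) or 1 LPS (orange) library left out. The 95% intervals of Fos, Fosb, Fosl2, Jun and Junb lie below 0 before any adjustment for the number of genes, and that of Jund spans 0.

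The libraries did not line up the same way for every subunit. Saline 3 was the lowest saline library for Fos, Fosb, Fosl2, Junb and Jund, but the highest for Jun. LPS 1 was the lowest LPS library for Fos, Fosb and Junb, but the highest for Jun and Jund. Fos and Fosb had the same order of libraries in both groups. Junb had that order in LPS libraries, but in saline libraries it was higher in saline 2 than in saline 1. Fos and Junb therefore shared their within-group pattern more closely than either did with Jun.

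Likeness over both groups together was put in numbers as the root mean square difference between 2 genes' log2 CPM over the 6 libraries. Each gene was centred on its own mean, and 0 means an identical pattern. This difference was computed against 11113 other genes. The difference between LPS and saline is part of it, so it does not measure the within-group order by itself. The gene closest to Fos was Junb (0.0874), followed by the zinc finger gene Egr2 (0.111), the nuclear receptor gene Nr4a1 (0.159) and Arl4d (0.163), a small GTPase gene. Junb had Fos closest, then Egr2 (0.139), Arl4d (0.179) and the immediate early gene Ier2 (0.200). Fosb lay nearest to Cebpd (0.142), Il33 (0.143), Nr4a2 (0.146) and Dusp5 (0.151), and not to another subunit. The neighbours of Fosl2 were Otud1 (0.0728), Spty2d1 (0.0732), Ppp1r3c (0.0771) and Ube2q2 (0.0776). For Jun they were Psme2 (0.124), Nfkbiz (0.146), Arrdc3 (0.165) and Prr5l (0.177). Fos ranked 9293 in closeness to Jun, while Jun ranked 96 in closeness to Fos, at the same difference of 0.434.

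The start regions of Fos, Junb and Jun are shown because Fos and Junb were the closest of the subunits by this measure and Jun had another order of libraries. Each line gives the 150 bases before the RefSeq start site (build GRCm38.p6), read 5′ to 3′ on the gene's strand. Capitals mark the letters TGACG, the core of the cAMP response element, and TATAA, the TATA box, on either strand; the site of AP-1, TGANTCA, was searched too. The windows are chr12:85473740-85473889 (plus strand) for Fos, chr8:84978749-84978898 (minus strand) for Junb and chr4:95052223-95052372 (minus strand) for Jun.
Fos: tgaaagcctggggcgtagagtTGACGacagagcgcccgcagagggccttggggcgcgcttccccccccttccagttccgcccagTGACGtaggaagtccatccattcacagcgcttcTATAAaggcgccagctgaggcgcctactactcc
Junb: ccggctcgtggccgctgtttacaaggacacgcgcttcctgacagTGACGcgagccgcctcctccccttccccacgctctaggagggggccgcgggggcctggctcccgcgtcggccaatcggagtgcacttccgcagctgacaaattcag
Jun: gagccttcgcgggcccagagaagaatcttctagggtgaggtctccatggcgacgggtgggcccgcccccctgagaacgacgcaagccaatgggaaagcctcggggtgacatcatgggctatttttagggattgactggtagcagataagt

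Motifs were counted on both strands in the 250 bases before the start site of the 6 subunit genes and of all 32536 distinct RefSeq windows of that length. TGACG was present upstream of Fos, with cores beginning 129 and 66 bases before the start, of Junb at 106 bases and of Fosb at 60 bases. It was in 17.9% of all windows. These letters were not found in the windows of Jun, Fosl2 or Jund. TATAA was found in the window of Fos alone, against 22.7% of all windows. TGANTCA and the full element TGACGTCA were in none of the 6 windows and in 6.73% and 1.56% of all windows. Only exact letters were counted, so near matches such as TGACATCA in the printed bases of Jun were left out. The CArG box, the site of serum response factor, was in none of the 6 windows and in 1.48% of all. Bases further upstream than 250 were not searched, so the genes may still have such sites there. The RefSeq start sites of Fosl2 and Jund lie 671 and 1210 bases from the nearest protein-coding start in GENCODE M21, so their windows may miss the start used here. The same distance is 30 bases for Junb, 1 for Fosb and 0 for Fos and Jun.

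In the authors' FPKM, which allow the subunits to be ranked against each other, Junb and Jund were the most abundant in saline mice. Junb had 135, 146 and 112 FPKM and Jund 128, 122 and 120 FPKM in saline 1, 2 and 3, ranges that overlap. Below them came Fos with 51.0 ± 6.62 FPKM, Jun with 23.4 ± 3.72, Fosb with 14.4 ± 2.30 and Fosl2 with 12.4 ± 1.01 FPKM (SD, n = 3 each). Fosb and Fosl2 did not differ beyond their spread, and each other step in this order exceeded the range of the 3 libraries.

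In LPS mice Jund stood alone at the top. It had 124, 116 and 118 FPKM in LPS 1, 2 and 3, while Junb had 44.4, 67.5 and 54.3 FPKM. Fos followed with 22.8 ± 3.76 FPKM, Jun with 15.4 ± 2.90, Fosl2 with 8.93 ± 0.538 and Fosb with 8.50 ± 1.35 FPKM (SD, n = 3 each), the last 2 again overlapping. Among all 14250 genes ranked by mean FPKM, Junb was at place 311 in saline and 998 in LPS mice, Fos at 1099 and 2734, and Jund at 337 and 352.

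The make-up of the AP-1 transcripts differed in turn. Their summed level was 355 ± 24.6 FPKM in saline and 230 ± 12.0 FPKM in LPS libraries (SD, n = 3 each). Jund made up 34.8 ± 1.77% of it in saline and 52.0 ± 4.29% in LPS libraries, and Junb 36.8 ± 2.66% and 23.9 ± 3.83%. The share of Fos was 14.3 ± 0.951% and 9.85 ± 1.14%, while that of Jun was 6.65 ± 1.54% and 6.70 ± 1.35%. Summed Jun family transcripts exceeded summed Fos family transcripts 3.28- to 3.87-fold in saline and 4.41- to 5.28-fold in LPS libraries by FPKM, and on average 2.19 ± 0.183-fold and 2.59 ± 0.198-fold (SD, n = 3 each) by summed CPM, which is not divided by gene length. These shares follow from the same values as the differences above and are given as a description.

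**Figure D3:**
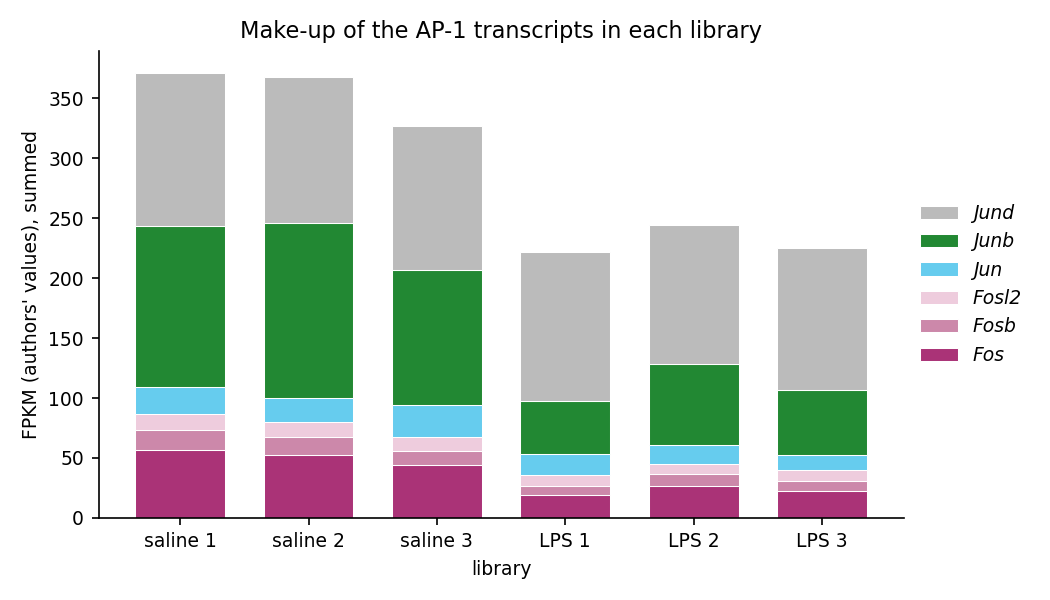
Authors' FPKM of the 6 AP-1 subunits stacked for each library (vertical axis from 0). The grey Jund segment is 116 to 128 FPKM in every library, while the green Junb segment is 112 to 146 FPKM in saline and 44.4 to 67.5 FPKM in LPS libraries.

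To set the lower subunits against Jund directly, the log2 ratio of each one's FPKM to that of Jund was taken within each library, a comparison chosen after seeing the values. For Junb the ratio was 0.08, 0.25 and -0.09 in saline 1, 2 and 3 and -1.48, -0.78 and -1.12 in LPS 1, 2 and 3. The mean ratio was lower in LPS libraries by 1.21 for Junb, 1.12 for Fos, 0.71 for Fosb, 0.56 for Jun and 0.43 for Fosl2. For all 5 ratios the groups did not overlap, and the two-sided exact permutation test gave p = 0.1 for each (adjusted p = 0.1 over the 5), the smallest p that this test allows with 3 against 3 libraries. These 5 genes were already seen not to overlap and Jund to differ little, so this outcome was largely fixed beforehand. The ratios restate the differences above and are no separate support for them.

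The remaining Fos family gene and other dimer partners were examined as a list. Of 13 genes listed for Fosl1, the ATF and BATF proteins, Jdp2 and the Maf proteins, 10 were measured, and edgeR called 0 in both directions. It counted 3 at an unadjusted p under 0.05, all lower. Over all genes 3.54% were lower by that rule, and 7.17% reached it in either direction. LPS libraries lay below saline without overlap for 4 of the 10 and above for 1, against 6.84% below over all genes and 975 of all 14250 genes above. DESeq2 called 1 lower, against 0.562% of all genes, and limma-voom 0. The median log2 change was 0.04. Atf3, a stress-induced partner of Jun proteins, was at 1.29 ± 0.148 CPM in the saline and 0.298 ± 0.134 CPM in the LPS group (SD, n = 3 each; log2 -2.09, SE 0.371, edgeR adjusted p = 0.0752) and was the gene that DESeq2 called. Of the 10 measured genes Atf3 had the lowest mean level, so its log2 change rests on low counts. Fosl1, which codes for Fra-1, had 3.28 ± 0.310 and 2.37 ± 0.119 CPM (log2 -0.47, SE 0.179), and its exons overlap Ccdc85b. The small Maf gene Mafk had a log2 change of -0.34 (SE 0.117). Batf, Batf2 and Batf3 were not analysed here.

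No transcript of the kinases and factors listed as acting on AP-1 genes was called. Of 17 ERK, JNK and p38 pathway kinase genes, edgeR, DESeq2 and limma-voom called 0, none had an unadjusted edgeR p under 0.05 (0 genes), and the list's median was -0.01 in log2. Map2k6, an activator of p38, had the smallest p in that list (log2 -0.24, SE 0.108), followed by Mapk14, which codes for p38α (0.13, SE 0.0591), and Map3k1 (-0.19, SE 0.114). Of 17 genes for serum response factor, its Elk and myocardin-related partners, CREB and its coactivators and MEF2 proteins, these tools also called 0, with 0 at an unadjusted p under 0.05 and a median of 0.06. The smallest p belonged to Elk4 (log2 0.24, SE 0.122), whose exons overlap Mfsd4a, Crebbp (0.15, SE 0.0876) and Crtc2 (0.13, SE 0.0794). Activity of these proteins depends largely on phosphorylation, which RNA levels do not show.

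Genes that act on the stability of AP-1 transcripts or proteins were examined next, and none passed edgeR's test. Zfp36, Zfp36l1 and Zfp36l2 code for proteins that bind AU-rich elements and speed mRNA decay. The level of Zfp36l1 was 56.7 ± 3.90 CPM in the saline and 41.2 ± 4.48 CPM in the LPS group (SD, n = 3 each; log2 -0.46, SE 0.0894, edgeR adjusted p = 0.110), and DESeq2 called it lower (adjusted p = 0.00200). The log2 change was -0.51 for Zfp36 (SE 0.146) and -0.40 for Zfp36l2 (SE 0.139, edgeR adjusted p = 0.584), whose groups overlapped. Over the 10 measured genes of this list, which also holds the ubiquitin ligase genes Fbxw7, Cop1, Det1 and Itch and the RNA-binding protein genes Elavl1, Hnrnpd and Khsrp, edgeR and limma-voom called 0, DESeq2 1, and 4 had an unadjusted edgeR p under 0.05. Over all genes DESeq2 called 0.562% lower, and 7.17% reached that unadjusted p in either direction. The list median was -0.10.

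None of the textbook targets of AP-1 was called. Of 15 listed, 13 were measured, and edgeR, DESeq2 and limma-voom called 0 in either direction, with a median log2 change of -0.06. At an unadjusted p under 0.05 edgeR counted 2 of the 13, where 7.17% of all genes passed in either direction. Those 2 were the metallothionein gene Mt2 (log2 0.26, SE 0.0778) and Nptx2 (0.24, SE 0.0864), a synaptic pentraxin gene, each higher in every LPS library. The cyclin gene Ccnd1 had -0.13 (SE 0.0629) and was lower in every LPS library, and its exons overlap another tested gene. Without overlap, LPS libraries lay below saline for 1 of the 13 and above for 2. Over all 14250 genes these numbers were 974 and 975. Scg2, a granin gene controlled by Fos in hippocampal neurons, had mean levels of 155 CPM without and 158 CPM with LPS, and Penk, an opioid peptide gene with an AP-1-responsive enhancer, 25.5 CPM in both.

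**Figure D4:**
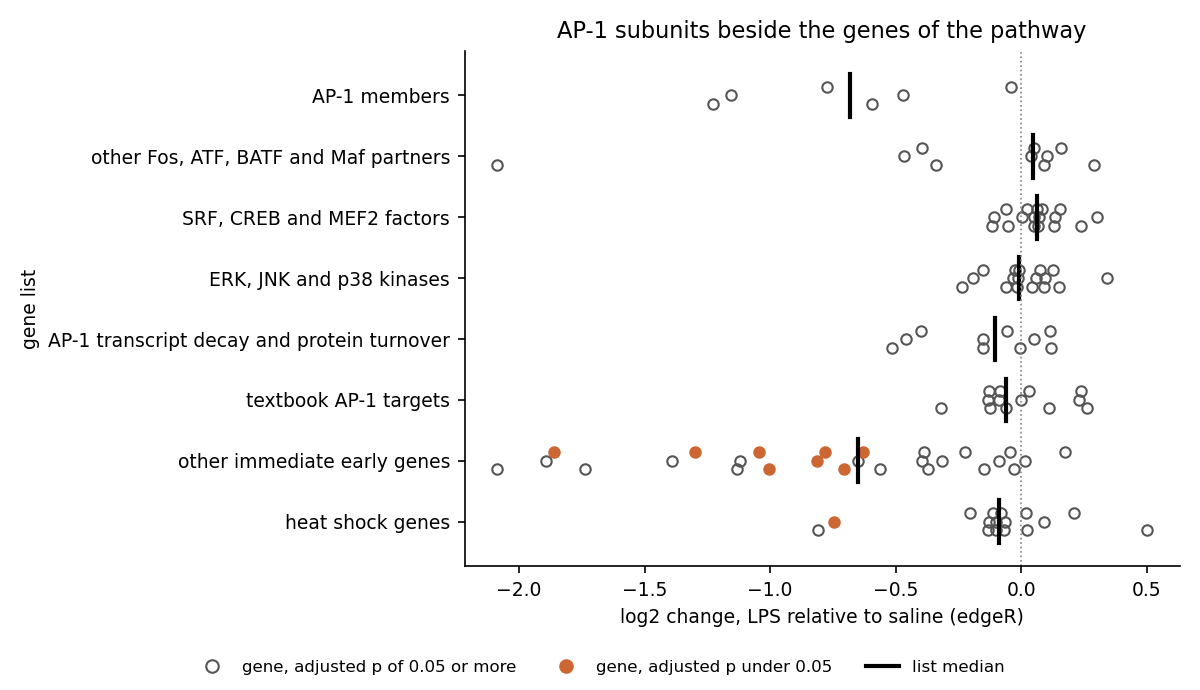
Log2 change (horizontal axis, LPS relative to saline, edgeR) of each measured gene in 8 lists, with the list median as a black bar and genes at an adjusted p under 0.05 filled in orange. The medians are -0.68 for the AP-1 subunits and -0.65 for the other immediate early genes, and between -0.10 and 0.06 for the 6 remaining lists.

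Some other immediate early genes were also lower in LPS libraries. Of 27 listed, which include Atf3 and Maff from the partner list, edgeR called 8 lower and 0 higher, DESeq2 13 lower and limma-voom 9 lower, with a median log2 change of -0.65. Over all genes these tools called 0.189%, 0.562% and 0.161% lower. The fitted change was negative for 25 of the 27 and positive for 2, Homer1 (0.18, SE 0.144) and Ier3 (0.02, SE 0.178). LPS libraries lay below saline without overlap for 14 of the 27, against 6.84% of all genes. The 3 of the list with the smallest p were Sik1, Gadd45b and Nr4a1, with log2 changes of -1.30, -0.82 and -1.04.

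Other measures were set beside the AP-1 subunits. Of 16 heat shock genes edgeR called 1 lower, Hspa1b (log2 -0.75, SE 0.0855), and DESeq2 also Hspa1a (-0.81, SE 0.142), against 0.189% and 0.562% of all genes. The list median was -0.09, with summed levels of 4934 to 5095 CPM (saline) and 4602 to 5119 CPM (LPS). Unannotated newGene rows took 2.51% to 2.93% of the counts in saline and 1.61% to 2.03% in LPS libraries. In the marker lists edgeR, DESeq2 and limma-voom called 0 genes, and no measured marker was at 0. At an unadjusted edgeR p under 0.05 were 4 of 10 inhibitory neuron, 2 of 12 microglia, 1 of 9 astrocyte, 1 of 10 oligodendrocyte, 1 of 12 endothelial and mural, 1 of 9 striatum and 0 of 8 meninges and choroid plexus genes. Over all genes 7.17% reached that p in either direction. Those 4 inhibitory neuron genes all had positive log2 changes. In that list 8 log2 changes were positive and 2 negative, and LPS libraries lay wholly above saline for 5 of the 10, as for 975 of all 14250 genes. Summed levels in saline and LPS libraries were 718 to 796 and 796 to 858 CPM for inhibitory neurons, 3199 to 5699 and 3087 to 6168 CPM for astrocytes, and 471 to 498 and 473 to 524 CPM for microglia. They were 2070 to 2616 and 2097 to 2829 CPM for oligodendrocytes, 625 to 660 and 632 to 681 CPM for endothelial and mural cells, 224 to 242 and 179 to 222 CPM for striatum, and 91.8 to 172 and 112 to 188 CPM for meninges and choroid plexus. The astrocyte sum was high in the libraries where its gene Slc1a2 was high. Slc1a2 was at 866, 966 and 3365 CPM in saline 1, 2 and 3 and at 3558, 3755 and 752 CPM in LPS 1, 2 and 3. Of these 7 sums, that of striatum did not overlap between the groups, and that of inhibitory neurons overlapped by under 1 CPM. The striatum list had a median log2 change of 0.06. Its gene Foxp1 was at 102, 97.1 and 89.6 CPM in saline and 40.8, 93.1 and 47.4 CPM in LPS 1, 2 and 3, and without it, an alternative chosen after seeing the data, the sums were 134 to 140 (saline) and 129 to 138 CPM (LPS) and overlapped. The part of any of these in the lower AP-1 transcripts was not tested, and the sources used here do not give the order or time of tissue collection.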

How the data were processed

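Raw counts and FPKM per gene were deposited by the authors in 1 table of 6 libraries; the count columns are whole numbers with a different total in each library. TopHat2 2.1, DESeq 1.10.1 and build GRCm38 are named per the submitters' processing notes, without roles; the counting program is not given in the sources used here. Of 14250 rows, 13562 had an Ensembl identifier and 688 were newGene rows. Counts were tested with edgeR 4.0.16 in R 4.3.3 (TMM, filterByExpr, which removed 0 rows, robust quasi-likelihood fit, two-sided), with DESeq2 1.42.0 and limma 3.58.1 as alternatives. The edgeR fit alone was also run on simulated counts, which cannot decide between the tools where they disagreed on the subunits. No libraries were near-duplicates (chi-square per degree of freedom of at least 32.1). The edgeR, DESeq2 and limma p-values set the difference between groups against the spread between these mice, estimated partly from all genes. The members and lists were chosen with earlier results of these data known. Named genes are the members, the 3 with the smallest p in each pathway list (marker lists are given as counts and sums) and the 4 genes most like each member whose groups did not overlap, at a mean of at least 5 CPM. Prdx2, Scg2, Penk, Homer1, Ier3, Foxp1 and Slc1a2 were added after their values were seen. Log2 CPM used a prior count of 2. Positions came from GENCODE M21 and promoters from RefSeq, both GRCm38; 6 of 6 members matched.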

Additional observations from a re-analysis of the deposited data

How the results depend on the processing

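The fitted log2 changes of Fos, Fosb, Fosl2, Jun and Junb were negative in all 18 alternatives each, and leaving out 1 library gave -1.31 to -1.04 for Fos, -0.91 to -0.64 for Fosb, -0.54 to -0.39 for Fosl2, -0.71 to -0.46 for Jun, -1.42 to -1.08 for Junb and -0.07 to 0.01 for Jund. Whether they passed depended on the test. AP-1 members lower numbered 5 with DESeq2 (log2 -1.16 for Fos, -0.77 for Fosb, -0.47 for Fosl2, -0.59 for Jun and -1.23 for Junb), 2 with limma-voom (-1.16 for Fos, -1.25 for Junb) and 2 with limma on log2(FPKM + 1) (-1.13 and -1.24), also with a mean of at least 0.5 FPKM, which was added after seeing the data. They numbered 1 without edgeR's robust option (Fos, -1.16), 1 at a threshold of 0.1 and 0 to 1 when single libraries were left out (1 without saline 3, Fosl2 at -0.54). Over all genes, lower and higher calls were 27 and 14 in the edgeR fit, 80 and 60 with DESeq2, 10 and 6 with quantile normalization, and 11 and 5 with log2(FPKM + 0.1). Higher calls were 7 with log2(FPKM + 1), with or without the filter, and 23 at the threshold of 0.1, and leaving out 1 library gave 22 to 35 lower and 14 to 20 higher. Apart from the looser threshold, the cause was not tested. RLE size factors, testing without a filter, a minimum mean of 50 counts and leaving out the newGene rows (added after seeing the data) changed none of the member calls. Libraries with the same replicate number showed little likeness over all genes (correlations of deviations from the group means -0.03, 0.03 and 0.04). These correlations cannot exclude that such libraries were paired. With those numbers as a replicate block edgeR called 0 members, 21 genes lower and 10 higher. In that fit Fos was at -1.16, Fosb at -0.77, Fosl2 at -0.47, Jun at -0.60, Junb at -1.24 and Jund at -0.04. Shares of summed CPM in place of FPKM put Jund at 27.3% in saline and 41.3% in LPS libraries, and Fosl2 at 10.8% and 12.1% against 3.50% and 3.89% by FPKM.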
